A study of Mus musculus with 7 samples.

Results

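The genes described here encode the matrix metalloproteinases (Mmp), their tissue inhibitors (Timp), the Adamts proteinases and the Adamts-like proteins (Adamtsl). They were chosen by symbol alone, as every gene whose name begins with Mmp or Timp and a digit or with Adamts. That gave 41 of the 16019 genes in the files, made up of 15 Mmp, 4 Timp, 17 Adamts and 5 Adamtsl genes. GENCODE M21 annotates 51 symbols of this form, and the other 10, among them the stromelysins Mmp3 and Mmp10 and the neutrophil collagenase Mmp8, were not analysed here.

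All 7 libraries came from mouse prostate in experimental autoimmune prostatitis (EAP), an immune-mediated inflammation of the gland. One group of 4 had received LIT927, a compound that binds and neutralises the chemokine CXCL12, at 25 mg/kg per day, and the other group of 3 had received methyl-β-cyclodextrin alone (vehicle). Injections were intraperitoneal and went on for 14 days in both groups. The labels used here give no strain or age, contain no group without prostatitis, and do not tell whether the libraries are from different animals. The p-values therefore speak of the spread between libraries, and some of that spread may be technical.

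Mmp enzymes are zinc proteinases that cut collagens, elastin, proteoglycans and cell-surface proteins. They are made as inactive precursors, and Timp proteins block the active enzymes by binding at the catalytic site. Adamts enzymes carry thrombospondin repeats that hold them in the matrix, where some remove the N-terminal propeptide of procollagens and others cut versican and aggrecan. Adamts-like proteins lack the catalytic domain. In a gland, fibroblasts make much of Mmp2, Timp2 and Timp3, whereas glandular epithelium is the known source of Mmp7.

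Mmp7, Mmp12 and Mmp13 lie in one cluster on chromosome 9, and in this set the AP-1 motif was found at their start sites only. RefSeq promoter sequences (GRCm38.p6, the build also called mm10) were matched for 27 of the 41 members, some with more than 1 start site. Each window ran from 250 bases before the start site to 50 after it, and both strands were searched. The AP-1 motif TGAGTCA, whose reverse complement is TGACTCA, was found in 3 of the 27 members, which were these 3, and in 4.18% of the windows of all measured genes. The TATA motif TATAAA was found in 5 of the 27, these 3 with Adamts1 and Adamtsl2, and in 8.35% of all such windows. Both motifs together were present in these 3 members and in 0.520% of the windows. The GC box GGGCGG, or CCGCCC on the other strand, was found in 21 of the 27 and in 57.2% of the windows. A match is a run of letters and says nothing of binding.

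The 80 bases before the start site are printed 5′ to 3′ on the strand of the gene for the 3 clustered members and, for contrast, for Mmp14 and Adamts3, which hold GC boxes. Capitals mark matches to the 3 motifs.
Mmp7, chr9:7692010-7692089, plus strand: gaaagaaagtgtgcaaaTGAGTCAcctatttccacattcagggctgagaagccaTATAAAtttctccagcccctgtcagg
Mmp12, chr9:7347294-7347373, plus strand: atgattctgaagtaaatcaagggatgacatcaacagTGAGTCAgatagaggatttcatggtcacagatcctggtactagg
Mmp13, chr9:7272434-7272513, plus strand: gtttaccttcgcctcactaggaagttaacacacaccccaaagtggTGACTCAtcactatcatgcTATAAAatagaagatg
Mmp14, chr14:54431518-54431597, plus strand: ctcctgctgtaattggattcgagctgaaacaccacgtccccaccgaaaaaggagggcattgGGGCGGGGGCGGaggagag
Adamts3, chr5:89883335-89883414, minus strand: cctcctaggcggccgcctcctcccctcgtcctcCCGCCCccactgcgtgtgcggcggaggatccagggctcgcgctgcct
The AP-1 match began 63 bases before the start site in Mmp7, 44 in Mmp12 and 35 in Mmp13. The TATA match began 26 bases before it in Mmp7 and 16 in Mmp13, and Mmp7 held another 123 bases before the start, outside the printed stretch. The RefSeq start used for Mmp12 is at 7347374, inside the GENCODE gene, which begins at 7344381. In Mmp12 the TATA match lay just past that start and is not printed.

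Values are FPKM, that is, fragment numbers corrected for gene length and library size, so levels of different genes can be compared. Recovered whole fragments totalled between 32023785 and 35240765 in a library. Markers of neighbouring tissues varied within both groups. The 5 uroplakin genes, markers of urothelium, summed to 264 FPKM in vehicle replicate 3 and 328 FPKM in LIT927 replicate 3, against 26.8 to 43.6 FPKM in the other 5. Upk1a alone gave 172 and 253 FPKM of those high sums. Upk1a, Upk2, Upk3a and Upk3b each had their highest values in both these libraries. Upk1b did not, at 38.3 FPKM in vehicle replicate 3 but 19.7 FPKM in LIT927 replicate 3, below vehicle replicate 1 and LIT927 replicate 4. Seminal vesicle secretory transcripts summed to 142306 to 299696 FPKM with LIT927 and 50975 to 550007 FPKM with vehicle. The 4 markers of the prostate lumen used here summed to 5513 to 115512 FPKM with LIT927 and 2644 to 59328 FPKM with vehicle, and Tgm4, the prostate transglutaminase, was present in each library, from 25.97 FPKM in LIT927 replicate 3 to 8361 FPKM in vehicle replicate 1. Fibroblast markers summed to 68.5 to 229 FPKM with LIT927 and 86.1 to 470.4 FPKM with vehicle, with 7 of 7 lower in mean with LIT927. In bulk tissue, fewer cells of a type and less RNA per cell cannot be told apart.

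In sum, transcripts of the Mmp and Timp families were abundant, and those of the Adamts families were not. A mean of at least 1 FPKM was reached by 8 of the 15 Mmp, 4 of the 4 Timp and 4 of the 17 Adamts genes. Mmp7 alone made up 5.07 to 77.6% of the Mmp sum. The 15 Mmp genes summed to 349, 284 and 60.5 FPKM in vehicle replicates 1, 3 and 4 and to 148, 51.02, 49.04 and 214 FPKM in LIT927 replicates 1 to 4. The 4 Timp genes summed to 167, 154 and 142 FPKM with vehicle and 65.6, 48.4, 113 and 91.8 FPKM with LIT927, so the 3 vehicle libraries all lay above the 4 LIT927 libraries. After median-of-ratios scaling, tried after seeing the data, that sum overlapped, at 128 to 214 with vehicle and 47.7 to 138 with LIT927. Timp1 alone gave 104 of the 142 FPKM in vehicle replicate 4, and no single Timp gene separated the groups. The 17 Adamts genes together reached only 21.7, 12.6 and 5.85 FPKM with vehicle and 9.004, 8.17, 1.87 and 11.2 FPKM with LIT927. A mean of at least 1 FPKM over the 7 libraries was reached by 19 of the 41 members, with Mmp7, Timp2, Timp3, Timp1 and Mmp15 at the top.

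**Figure D1:**
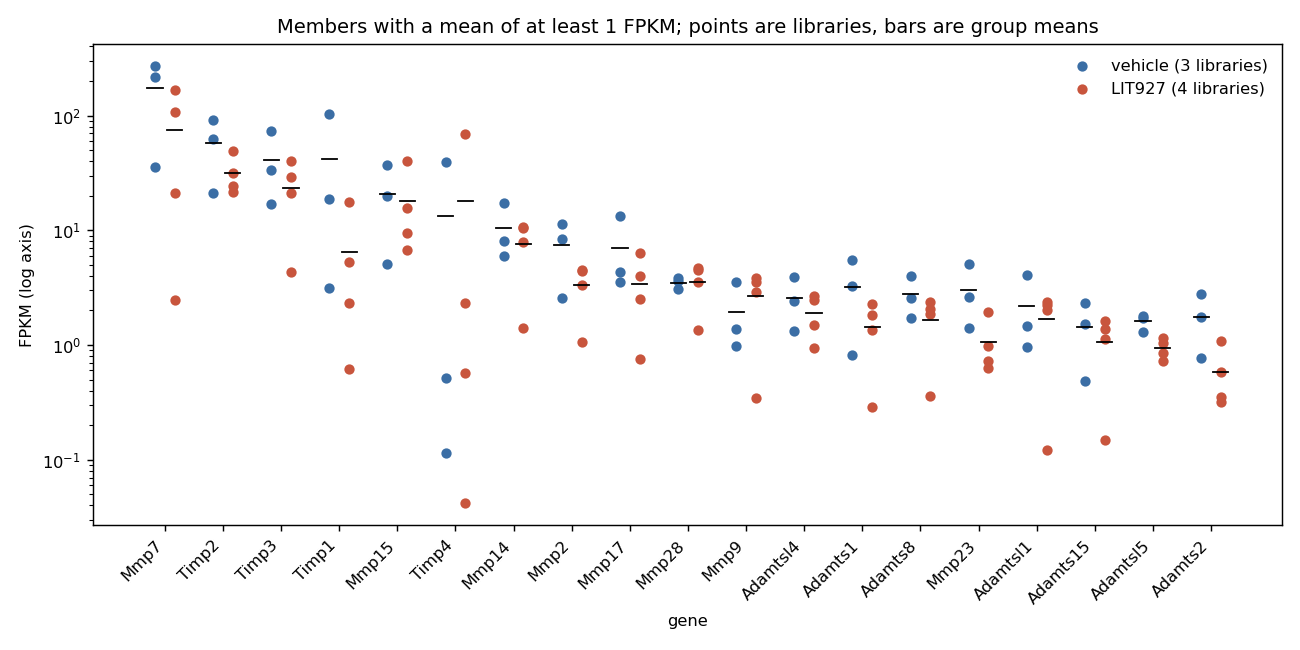
FPKM on a log axis for the 19 members with a mean of at least 1 FPKM, in order of that mean; points are single libraries (3 vehicle, 4 LIT927) and short bars are group means. The groups overlap for every gene but Adamtsl5, and the lowest LIT927 point of most genes is replicate 3.

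The main comparison asked how the inflamed prostate differed with and without LIT927. Of the 41 members, 38 had a lower mean log2(FPKM + 1) with LIT927 than with vehicle, while 44.5% of all 16019 genes did. The median difference, LIT927 minus vehicle on the log2(FPKM + 1) scale, was -0.17 over the members and 0.02 over all genes. No member passed the test: 0 of 41 had a Benjamini-Hochberg adjusted p under 0.05 in limma, as did 0% of all genes, and the adjusted p was 0.998 for each member. At an unadjusted p under 0.05, limma picked 4 members, all lower (Adamts2, Adamtsl5, Mmp23 and Adamts3), beside 2.96% of all genes in that direction and 0.718% in the other. After median-of-ratios scaling, which removes a shift common to most genes of a library, 38 members were lower, beside 49.7% of all genes, and 8 had an unadjusted p under 0.05, all lower, beside 5.51%. The voom model of limma, run on recovered fragments, also passed 0 members and had 38 lower, beside 49.6% of all genes, with 10 at an unadjusted p under 0.05, of which 9 were lower, beside 5.74%. One setting did pass members. With estimated library quality weights, whose estimation stopped before it converged, 17 of the 41 members passed beside 37.9% of all genes. Weights estimated gene by gene passed 0 members beside 2.91% of all genes.

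The highest and lowest values of the members gathered in a pair of libraries. Vehicle replicate 1 held the highest value of 31 of the 41 members, against 47.0% of all genes, and LIT927 replicate 3 the lowest value of 26, against 30.7% of all genes. After median-of-ratios scaling these counts were 27 and 25 members, against 20.6% and 29.0% of all genes. The same 2 libraries were highest and lowest for the summed markers of fibroblasts (470.4 and 68.5 FPKM), endothelium (86.8 and 5.095 FPKM), smooth muscle (7881 and 698 FPKM) and macrophages (342 and 39.7 FPKM). All 7 fibroblast, 6 endothelial, 6 smooth muscle and 7 macrophage markers were lower in mean with LIT927, and the part of these cell types in the members' values was not tested. Leaving out vehicle replicate 1 left 28 members lower with a median of -0.05, while the median of all genes moved to 0.14. Leaving out LIT927 replicate 3 left 32 lower with a median of -0.10. Leaving out vehicle replicate 4, which held the lowest value of 52.8% of all genes, left 39 lower with a median of -0.42. The share of all genes lower in these runs is not given here, so the counts do not set apart a shift of a whole library. With median-of-ratios scaling the count stayed at 35 to 38 lower without any single library, and the median at -0.33 to -0.11.

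**Figure D2:**
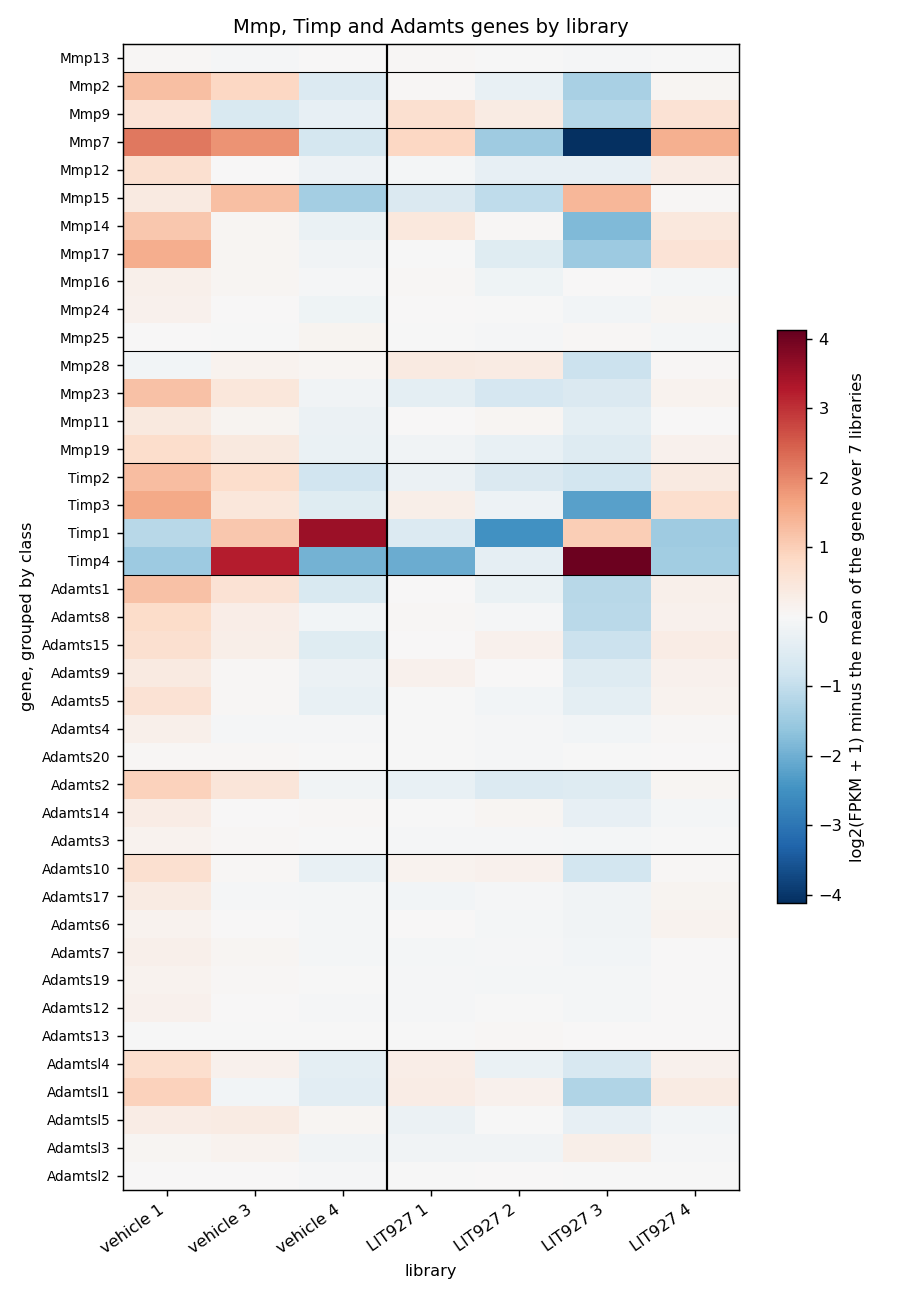
Each row is a member and each column a library; colour is log2(FPKM + 1) minus the mean of that gene over 7 libraries, rows are grouped by class with thin lines between classes, and the vertical line separates vehicle from LIT927. Most rows are highest in vehicle replicate 1 and lowest in LIT927 replicate 3, while Timp1 and Timp4 run against that order.

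The groups did not overlap, with LIT927 lower, for 2 of the 41 members, Adamts3 and Adamtsl5, beside 2.12% of all genes. After median-of-ratios scaling they did not overlap for 6 of the 41, which added Adamts2, Adamts8, Adamts19 and Mmp23, beside 4.99% of all genes. Without vehicle replicate 4 the count was 16 of the 41 members, beside 16.8% of all genes. Without LIT927 replicate 4 it was 5 of the 41, beside 4.76% of all genes. With LIT927 higher, the only such member was Adamts13, beside 1.08% of all genes.

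The procollagen N-proteinases Adamts2, Adamts3 and Adamts14 were all lower in mean with LIT927. Adamts2, the main enzyme that removes the N-propeptide of type I procollagen (chromosome 11, 50602084 to 50807573, plus strand, mm10), was at 2.79, 1.75 and 0.764 FPKM in vehicle replicates 1, 3 and 4 and at 0.581, 0.3202, 0.356 and 1.07 FPKM in LIT927 replicates 1 to 4. The lowest vehicle library lay below the highest LIT927 library, so the groups overlapped by that pair. The mean was 0.583 ± 0.347 FPKM (SD, n = 4) with LIT927 and 1.77 ± 1.01 FPKM (SD, n = 3) with vehicle, a difference of -0.76 (SE 0.28) in limma on the log2(FPKM + 1) scale. With voom on recovered fragments the log2 difference was -1.67 (SE 0.38; adjusted p = 0.583).

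Adamts3, which processes type II procollagen and activates the lymphatic growth factor VEGF-C (chromosome 5, 89677087 to 89883334, minus strand), was scarce. It rested on 48, 24 and 17 fragments in the vehicle libraries and 7, 6, 2 and 13 in the LIT927 libraries, or 0.172, 0.0854 and 0.0580 FPKM against 0.0258, 0.0221, 0.00750 and 0.0449 FPKM. Every LIT927 library was below every vehicle library. The difference of -0.11 (SE 0.045) is small because the pseudocount of 1 is large beside these levels, and voom gave -2.09 (SE 0.50; adjusted p = 0.583). Adamts14 was at 0.625, 0.337 and 0.361 FPKM with vehicle and 0.325, 0.3904, 0.0542 and 0.261 FPKM with LIT927, where only replicate 3 lay far below the vehicle range.

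Col1a1, a chain of type I procollagen, was at 41.3, 18.7 and 9.92 FPKM with vehicle and 12.3, 8.95, 2.95 and 20.3 FPKM with LIT927, with overlapping groups. Set against the sum of the 7 fibroblast markers, Adamts2 stood at 0.593, 0.637 and 0.887 FPKM per 100 FPKM of those markers with vehicle and at 0.3901, 0.248, 0.5197 and 0.469 with LIT927, without overlap. The corresponding ratios for Adamts3 were 0.0365, 0.0311 and 0.0674 with vehicle and 0.0173, 0.0171, 0.0110 and 0.0196 with LIT927. Of the 41 members, 4 had such ratios lower in every LIT927 library (Adamts2, Adamts3, Adamts7 and Mmp19), beside 0.943% of all genes. In 2 members, Mmp24 and Adamts13, the ratio was higher in every LIT927 library, beside 3.13% of all genes. For Mmp24, a membrane-type enzyme, the ratio was 0.0791, 0.0848 and 0.0917 with vehicle and 0.162, 0.154, 0.169 and 0.131 with LIT927. Its own mean was not higher with LIT927, at 0.214 FPKM against 0.228 FPKM with vehicle, on 12 to 54 fragments in a library. It shares exonic bases with BC029722 on the opposite strand, which was at 13.5 to 33.4 FPKM, and reads of the shared bases could not be told apart. Dcn led the marker sum, with 258 of 470.4 FPKM in vehicle replicate 1 and 44.1 of 68.5 FPKM in LIT927 replicate 3. The lack of overlap therefore depends on the markers chosen. Beside Col1a1 alone, Adamts2 stood highest in LIT927 replicate 3, at 0.356 against 2.95 FPKM, and the groups overlapped. These ratios are a description: the part of fibroblast content in the deposited difference was not tested.

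**Figure D3:**
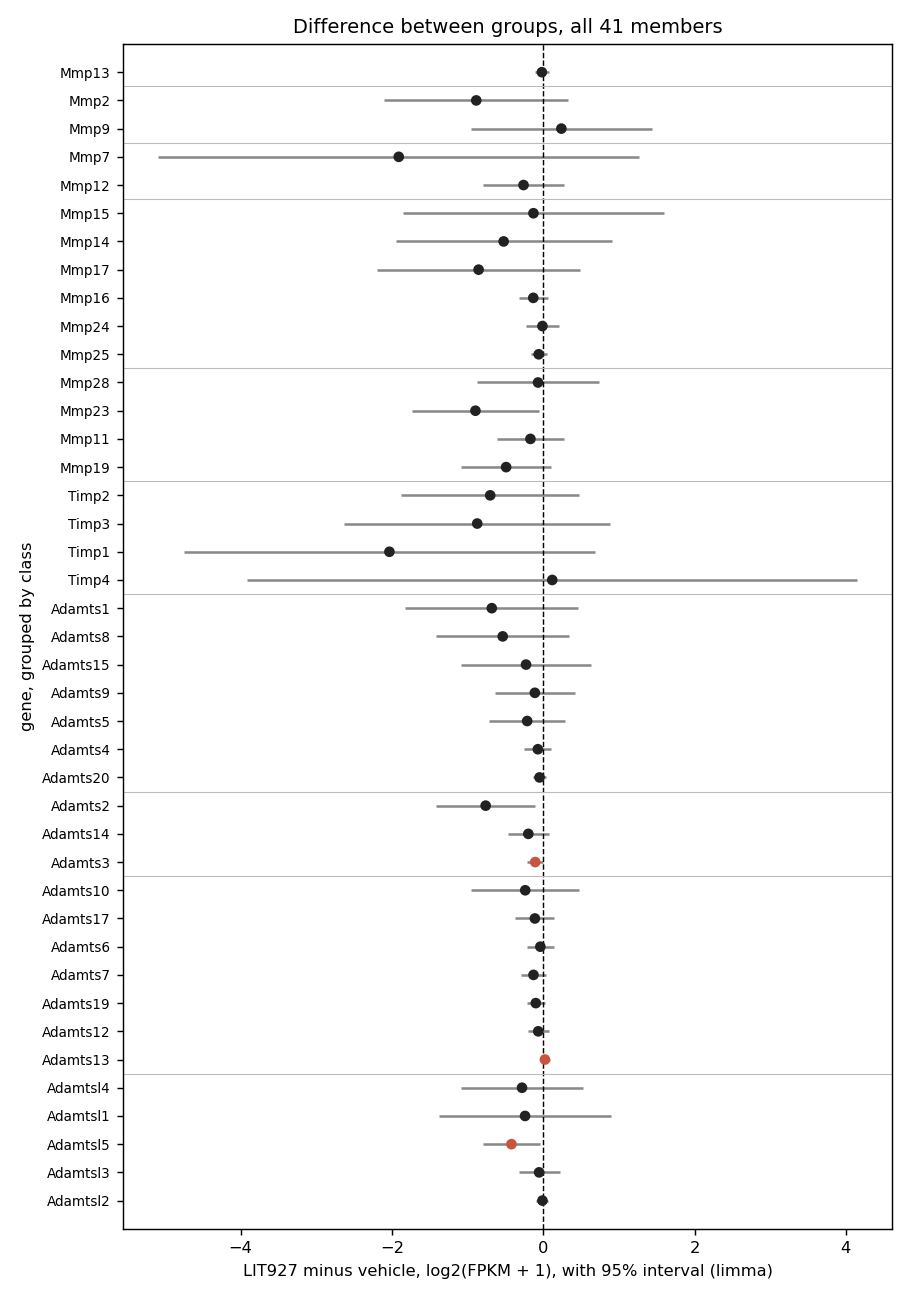
Difference between the group means (LIT927 minus vehicle) on the log2(FPKM + 1) scale for all 41 members, with the 95% interval from limma; red points mark members whose groups do not overlap and the dashed line is no difference. Of the intervals, 4 exclude 0, those of Adamts2, Adamts3, Adamtsl5 and Mmp23, and none of these members passes after adjustment over all genes.

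Among the gelatinases, which cut denatured and basement membrane collagen, the 2 members differed in pattern. Mmp2, a fibroblast product (chromosome 8, 92827291 to 92853420, plus strand), was at 11.4, 8.45 and 2.58 FPKM with vehicle and 4.42, 3.31, 1.07 and 4.55 FPKM with LIT927. Vehicle replicates 1 and 3 were above every LIT927 library, but replicate 4 was not. The means were 3.34 ± 1.61 FPKM (SD, n = 4) with LIT927 and 7.47 ± 4.47 FPKM (SD, n = 3) with vehicle, and the difference of -0.89 (SE 0.52) had a 95% interval of -2.10 to 0.33. It was -0.52 without vehicle replicate 1 and -1.42 without vehicle replicate 4.

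Mmp9, which neutrophils store in granules and macrophages and epithelia also make (chromosome 2, 164940780 to 164955850, plus strand), was at 3.52, 0.975 and 1.39 FPKM with vehicle and 3.82, 2.87, 0.343 and 3.57 FPKM with LIT927. It was thus within or above the vehicle range in every LIT927 library except replicate 3. The difference was 0.24 (SE 0.51), and it was -0.0060 without vehicle replicate 3 and 0.67 without LIT927 replicate 3. The 6 measured neutrophil markers were divided by library, though 5 of the 6 had a lower mean log2(FPKM + 1) with LIT927. Their sum, 0.279 to 37.7 FPKM with LIT927 and 12.3 to 28.4 FPKM with vehicle, was led in every library but LIT927 replicate 3 by Ltf, the lactoferrin gene, which reached 34.3 FPKM in LIT927 replicate 2 and which secretory epithelium also makes. S100a9, a calprotectin subunit, was lower in every LIT927 library, at 3.796, 2.87 and 2.27 FPKM with vehicle and 0.409, 0.117, 0.0595 and 1.31 FPKM with LIT927. The granule genes Ngp, Camp and Mpo were also lower in every LIT927 library, as were 2.12% of all genes. Each was at 0 in at least 1 LIT927 library. Camp rested on 4, 4 and 2 fragments with vehicle and 0, 1, 1 and 0 with LIT927, and Mpo on 6, 6 and 4 and 0, 1, 0 and 0. S100a8, the other calprotectin subunit, was at 2.802, 1.36 and 2.46 FPKM and 3.43, 3.201, 0.0795 and 3.29 FPKM, and like Mmp9 was lowest in LIT927 replicate 3. The part of neutrophils in the Mmp9 values was not tested.

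Mmp7, or matrilysin, is a small Mmp without the haemopexin domain that glandular epithelium secretes (chromosome 9, 7692090 to 7699585, plus strand). It had the highest mean of all members and ranged 109-fold between libraries. Its levels were 271, 216 and 35.7 FPKM in vehicle replicates 1, 3 and 4 and 108, 21.1, 2.49 and 166 FPKM in LIT927 replicates 1 to 4. Both groups thus held high and low libraries, and the lowest 3 values were LIT927 replicates 3 and 2 and vehicle replicate 4. The means were 74.3 ± 76.3 FPKM (SD, n = 4) with LIT927 and 174 ± 123 FPKM (SD, n = 3) with vehicle. On the log2 scale the difference was -1.91 (SE 1.37) with a 95% interval of -5.09 to 1.27, and -0.81 without LIT927 replicate 3.

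Mmp7 made up 77.6, 76.1 and 58.9% of the summed Mmp FPKM in the vehicle libraries and 72.9, 41.3, 5.07 and 77.3% in the LIT927 libraries. The 4 markers of the prostate lumen did not move as one beside it. Tgm4 was at 8361, 2073 and 1127 FPKM with vehicle and 1953, 60.97, 25.97 and 6706 FPKM with LIT927. Pbsn, or probasin, was at 11311, 3096 and 1283 FPKM with vehicle and 3823, 129, 233 and 8963 FPKM with LIT927. The 2 libraries with the lowest Tgm4 and Pbsn were also the 2 with the lowest Mmp7. Sbp and Msmb, other secretory genes, were highest in vehicle replicate 3 and LIT927 replicate 3, and the sum of the 4 was highest, at 115512 FPKM, in LIT927 replicate 3, where Mmp7 was lowest. Msmb was at 1019.8 and 337 FPKM in those 2 and at 2.83 to 6.62 FPKM elsewhere. The part of glandular content in the Mmp7 values was not tested. Exons of Mmp7 share bases with AV064505 on the opposite strand, and the strand setting of the counting is not given in the sources used here, so reads of that locus could not be told apart.

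The other secreted proteinases of the chromosome 9 cluster were scarce. Mmp12, the macrophage metalloelastase, was chosen after its values were seen, for its place in the cluster. It rested on 126, 35 and 14 fragments in the vehicle libraries and 26, 1, 1 and 73 in the LIT927 libraries, with means of 0.457 and 0.196 FPKM. Macrophage markers summed to 342, 121 and 196 FPKM with vehicle and 84.9, 88.6, 39.7 and 124 FPKM with LIT927, highest in vehicle replicate 1 and lowest in LIT927 replicate 3. The collagenase Mmp13, also of the cluster, held at most 6 fragments in any library and 0 in vehicle replicate 3 and LIT927 replicate 3, where 0 allows up to 0.0331 and 0.0349 FPKM (3 fragments, counting error only).

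The membrane-type enzymes, which stay anchored at the cell surface, were lower in mean with LIT927 in 6 of 6 genes, and in none was the difference beyond the spread between libraries. Mmp14, the membrane-type enzyme that activates the Mmp2 precursor together with Timp2 (chromosome 14, 54431612 to 54445364, plus strand), was at 17.3, 8.07 and 5.99 FPKM with vehicle and 10.7, 7.91, 1.39 and 10.4 FPKM with LIT927. Apart from LIT927 replicate 3 the LIT927 libraries lay inside the vehicle range. The difference of -0.52 (SE 0.61) became 0.012 without that library. Mmp17, which is held by a lipid anchor, was at 13.3, 4.35 and 3.54 FPKM with vehicle and 3.96, 2.53, 0.758 and 6.38 FPKM with LIT927, a difference of -0.86 (SE 0.58) that was -0.34 without vehicle replicate 1.

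Mmp15, another transmembrane member (chromosome 8, 95352268 to 95375080, plus strand), did not follow the other membrane-type genes. Its levels were 19.9, 36.9 and 5.04 FPKM with vehicle and 9.53, 6.78, 40.1 and 15.7 FPKM with LIT927, so its 2 highest values were vehicle replicate 3 and LIT927 replicate 3. These are the 2 libraries with high urothelial markers, and the secretory genes Sbp and Msmb were also highest in them. The difference was -0.13 (SE 0.74), with an interval of -1.86 to 1.60, and its sign changed without vehicle replicate 3, where it was 0.45. The parts of urothelial and prostate secretory cells in the Mmp15 values were not tested.

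Of the other Mmp genes, Mmp23, a membrane-bound enzyme without a haemopexin domain (chromosome 4, 155650655 to 155653384, minus strand), was at 5.09, 2.61 and 1.39 FPKM with vehicle and 0.9899, 0.627, 0.724 and 1.93 FPKM with LIT927. Of the 4 LIT927 values, 3 were below every vehicle value, and replicate 4 was above vehicle replicate 4 only. The means were 1.07 ± 0.597 FPKM (SD, n = 4) with LIT927 and 3.03 ± 1.88 FPKM (SD, n = 3) with vehicle, with a difference of -0.90 (SE 0.36) in limma. With voom it was -1.54 (SE 0.40; adjusted p = 0.583). Mmp19 was at 1.59, 1.09 and 0.295 FPKM with vehicle and 0.425, 0.266, 0.0811 and 0.763 FPKM with LIT927, a difference of -0.49 (SE 0.26). It shares exonic bases with Tmem198b on the opposite strand.

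Mmp28, or epilysin, an epithelial Mmp, was the steadiest of the Mmp genes with a mean of at least 1 FPKM, at 3.06, 3.82 and 3.59 FPKM with vehicle and 4.69, 4.47, 1.35 and 3.53 FPKM with LIT927. Its highest and lowest libraries differed 3.46-fold, and LIT927 replicate 3 alone lay under 3 FPKM. The difference of -0.070 (SE 0.35) had an interval of -0.88 to 0.74, and it was 0.22 without that replicate.

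The inhibitors had contrasting patterns. Timp2, which blocks Mmp2 and also helps to activate it (chromosome 11, 118301069 to 118355740, minus strand), was at 90.9, 62.5 and 21.1 FPKM with vehicle and 31.4, 24.5, 21.5 and 48.9 FPKM with LIT927. Vehicle replicates 1 and 3 lay above all LIT927 libraries and vehicle replicate 4 below them. Its means were 31.6 ± 12.3 FPKM (SD, n = 4) with LIT927 and 58.1 ± 35.1 FPKM (SD, n = 3) with vehicle, a difference of -0.70 (SE 0.51). Set against the fibroblast markers it varied less: 19.3, 22.7 and 24.4 FPKM per 100 FPKM of marker with vehicle and 21.1, 18.97, 31.3 and 21.3 with LIT927. Its highest and lowest deposited values differed 4.32-fold and these ratios 1.65-fold. Dcn alone was 258 of the 470.4 FPKM of fibroblast markers in vehicle replicate 1 and 44.1 of the 68.5 FPKM in LIT927 replicate 3. The part of fibroblast content in the Timp2 values was not tested.

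Timp3, the inhibitor that binds to the matrix and also blocks Adam17 and Adamts enzymes (chromosome 10, 86300372 to 86349506, plus strand), was at 72.7, 33.5 and 16.8 FPKM with vehicle and 28.9, 20.97, 4.299 and 39.99 FPKM with LIT927. It was highest in vehicle replicate 1 and lowest in LIT927 replicate 3, with the other 5 libraries between 16.8 and 39.99 FPKM. The difference was -0.87 (SE 0.76), and -0.35 without vehicle replicate 1. Timp3 shares exonic bases with Syn3 on the opposite strand, which was listed at 0.0267 to 0.0844 FPKM with vehicle and 0.0365 to 0.0653 FPKM with LIT927.

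Timp1, the inducible inhibitor of many secreted Mmp enzymes (chromosome X, 20870166 to 20874735, plus strand), stood out in a single vehicle library. It was at 3.15, 18.8 and 104 FPKM in vehicle replicates 1, 3 and 4 and 5.25, 0.622, 17.6 and 2.33 FPKM in LIT927 replicates 1 to 4. Vehicle replicate 4, low for most members, thus held the highest value, while vehicle replicate 1 lay below 2 LIT927 libraries. The means were 6.45 ± 7.66 FPKM (SD, n = 4) with LIT927 and 41.99 ± 54.3 FPKM (SD, n = 3) with vehicle, the largest difference among the members at -2.03 (SE 1.17), with an interval of -4.75 to 0.68. Without vehicle replicate 4 it was -0.86, and without vehicle replicate 1 it was -3.19. Other markers were high in the same library. Svs1, Svs3a, Svs4, Svs5 and Svs6, 5 of the 7 seminal vesicle secretory markers, shared their 3 highest libraries with Timp1. Svs1 was at 80.9, 11985 and 25355 FPKM with vehicle and 123, 38.8, 11062 and 243 FPKM with LIT927, while Svs2 and Pate4 of the same list were highest in LIT927 replicate 2, where Timp1 was lowest. The 7 seminal vesicle markers summed to 50975, 267968 and 550007 FPKM with vehicle and 222760.4, 299696, 295149 and 142306 FPKM with LIT927. T cell markers were highest in vehicle replicate 4 too, but lowest of the vehicle libraries in replicate 3, with sums of 5.12, 3.01 and 8.47 FPKM with vehicle and 0.789, 1.999, 2.65 and 1.15 FPKM with LIT927, and the part of either tissue or cell type was not tested. Timp1 lies within Syn1, which is on the opposite strand and shares no exonic bases with it. Syn1 was at 1.77, 0.579 and 0.159 FPKM in the vehicle libraries and 0.0476, 0.0286, 0.145 and 0.152 FPKM in the LIT927 libraries. The part of reads from Syn1 in the Timp1 values was not tested.

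Timp4, an inhibitor of restricted tissue distribution (chromosome 6, 115241892 to 115252205, minus strand), ranged 1666-fold between libraries. Its levels were 0.514, 39.1 and 0.115 FPKM with vehicle and 0.0416, 2.34, 69.3 and 0.565 FPKM with LIT927, so the 2 highest were vehicle replicate 3 and LIT927 replicate 3, as for Mmp15. The other 5 libraries were between 0.0416 and 2.34 FPKM, on 4 to 225 fragments. With 1 such library in each group the difference was 0.12 (SE 1.74), with an interval of -3.92 to 4.15, and leaving out single libraries moved it over -1.21 to 1.77. Syn2, which shares exonic bases with Timp4 on the opposite strand, measured 0.866 FPKM in vehicle replicate 3, 0.162 FPKM in LIT927 replicate 3 and 3.72 FPKM in vehicle replicate 1. Reads of the shared bases could not be told apart. Sbp, a secretory gene of the prostate, was at 53139 and 114916 FPKM in the same 2 libraries and at 7.998 to 5316 FPKM elsewhere. The parts of urothelial and prostate secretory cells in the Timp4 values were not tested.

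**Figure D4:**
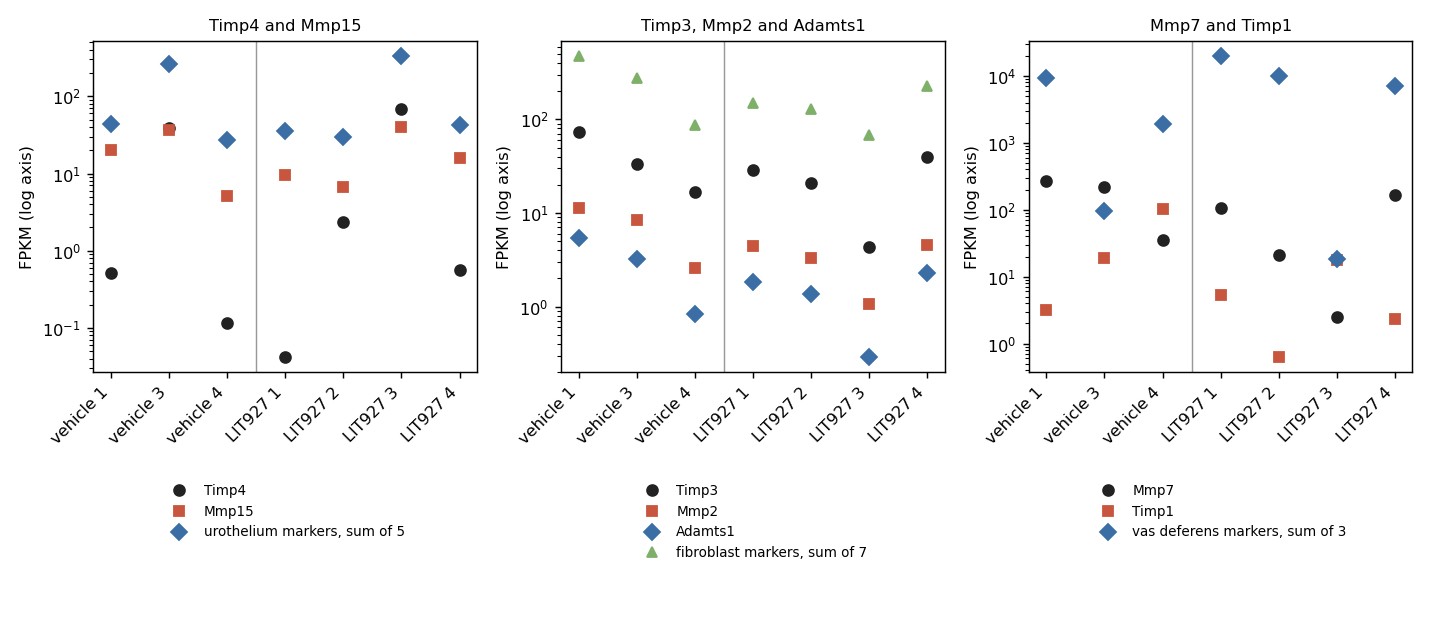
FPKM on log axes in the 7 libraries (vehicle left of the line, LIT927 right of it) for Timp4 and Mmp15 beside the summed urothelial markers, for Timp3, Mmp2 and Adamts1 beside the summed fibroblast markers, and for Mmp7 and Timp1 beside the summed vas deferens markers. Timp4, Mmp15 and the urothelial sum share their 2 highest libraries; Mmp7 and the vas deferens sum do not share theirs.

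Which inhibitor dominated thus depended on the library. Timp1 made up 1.88, 12.2 and 73.3% of the summed Timp FPKM in the vehicle libraries and 8.003, 1.28, 15.6 and 2.54% in the LIT927 libraries. For Timp4 the shares were 0.307, 25.4 and 0.0813% and 0.0634, 4.83, 61.5 and 0.616%. In vehicle replicate 1 and LIT927 replicates 1, 2 and 4, Timp2 and Timp3 together made up most of it, with Timp3 at 43.3% to 44.1%.

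**Figure D5:**
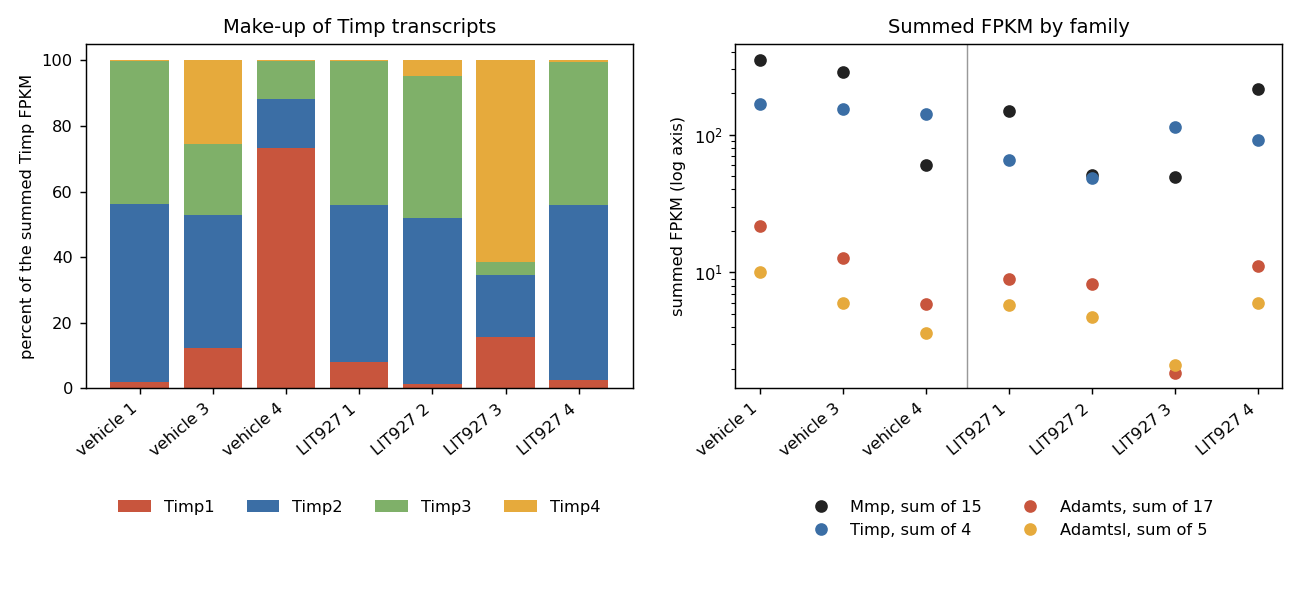
Left, the share of each Timp gene in the summed Timp FPKM of a library, in percent; right, the summed FPKM of each family on a log axis. Timp1 takes 73.3% in vehicle replicate 4 and Timp4 61.5% in LIT927 replicate 3, while the Timp sum is 142 to 167 FPKM in the 3 vehicle libraries.

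Ratios within a library do not depend on how the libraries are scaled. The Mmp2 to Timp2 ratio was 0.125, 0.135 and 0.123 in the vehicle libraries and 0.141, 0.135, 0.0498 and 0.0930 in the LIT927 libraries. Only LIT927 replicates 3 and 4 lay below the vehicle range. In LIT927 replicates 1 and 2, Mmp2 and Timp2 were both below vehicle replicates 1 and 3 and both above vehicle replicate 4. The Mmp14 to Mmp2 ratio was 1.52, 0.954 and 2.32 with vehicle and 2.41, 2.39, 1.303 and 2.29 with LIT927, where the lowest 2 were the libraries with high urothelial markers. The Adamts1 to Timp3 ratio stayed between 0.0491 and 0.0969 in the 7 libraries, although Adamts1 itself ranged 19.04-fold and Timp3 16.9-fold.

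The Adamts enzymes that cut versican and aggrecan were lower in mean with LIT927 in 7 of 7 genes, with a median difference of -0.21, and 0 of the 7 passed the test. Adamts1, which also restrains vessel growth (chromosome 16, 85793827 to 85803113, minus strand), was at 5.46, 3.25 and 0.824 FPKM with vehicle and 1.82, 1.35, 0.287 and 2.27 FPKM with LIT927. Its vehicle libraries spanned the whole LIT927 range except replicate 3. The difference of -0.68 (SE 0.49) was -0.28 without vehicle replicate 1 and -1.19 without vehicle replicate 4. Adamts5, its neighbour on chromosome 16 and the main aggrecanase of mouse cartilage, had a mean of 0.446 FPKM and is counted with the low members.

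Adamts8 and Adamts15 are neighbours on chromosome 9. Adamts8 was at 3.97, 2.59 and 1.73 FPKM with vehicle and 2.06, 1.86, 0.358 and 2.37 FPKM with LIT927, a difference of -0.54 (SE 0.38). In FPKM its groups overlapped, since vehicle replicate 4 lay among the LIT927 values. Adamts15 was at 2.33, 1.52 and 0.482 FPKM with vehicle and 1.14, 1.39, 0.148 and 1.61 FPKM with LIT927, a difference of -0.23 (SE 0.37) that became 0.034 without vehicle replicate 1 and 0.033 without LIT927 replicate 3. For both genes LIT927 replicate 3 was the lowest library by a wide gap.

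The remaining Adamts enzymes lay below 1 FPKM in mean. Adamts7, which cuts cartilage oligomeric matrix protein, rested on 90, 49 and 15 fragments with vehicle and 12, 20, 5 and 36 with LIT927, a difference of -0.13 (SE 0.072). It shares exonic bases with Tbc1d2b on the opposite strand. Adamts19 rested on 66, 36 and 24 fragments with vehicle and 16, 9, 7 and 34 with LIT927, a difference of -0.10 (SE 0.052). Adamts13, the enzyme that cuts von Willebrand factor and comes mainly from liver, had 1, 0 and 0 fragments with vehicle and 1, 6, 2 and 2 with LIT927. Its groups do not overlap in FPKM only because the single fragment of vehicle replicate 1 counts for slightly less than that of LIT927 replicate 1, and no fold is given at these counts. A 0 allows up to 0.0179 FPKM in vehicle replicate 3 and 0.0172 FPKM in vehicle replicate 4 (3 fragments).

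Among the Adamts-like genes, whose proteins bind fibrillin microfibrils in several cases, 5 of 5 were lower in mean with LIT927, with a median difference of -0.24. Adamtsl5 (chromosome 10, 80339110 to 80348412, minus strand) had the clearest separation of the members above 1 FPKM. It was at 1.72, 1.796 and 1.297 FPKM with vehicle and 0.854, 1.16, 0.723 and 1.04 FPKM with LIT927, and every LIT927 library was below every vehicle library. The means were 0.945 ± 0.195 FPKM (SD, n = 4) with LIT927 and 1.605 ± 0.269 FPKM (SD, n = 3) with vehicle, a difference of -0.42 (SE 0.16) that stayed at -0.51 to -0.36 without any single library. With voom it was -0.77 (SE 0.25; adjusted p = 0.583). Set against the fibroblast markers its groups overlapped, at 0.366, 0.653 and 1.51 FPKM per 100 FPKM of marker with vehicle and 0.573, 0.898, 1.06 and 0.455 with LIT927.

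Adamtsl4, which is tied to the fibrillin fibres of the eye lens, was at 3.95, 2.42 and 1.33 FPKM with vehicle and 2.65, 1.51, 0.939 and 2.47 FPKM with LIT927, a difference of -0.28 (SE 0.35). Adamtsl1 was at 4.096, 1.48 and 0.967 FPKM with vehicle and 2.24, 2.02, 0.121 and 2.37 FPKM with LIT927. Outside LIT927 replicate 3 its LIT927 values were close together and inside the vehicle range, and the difference of -0.24 (SE 0.49) became 0.14 without that library.

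The other 16 members (Adamts4, Adamts5, Adamts6, Adamts9, Adamts10, Adamts12, Adamts17, Adamts20, Adamtsl2, Adamtsl3, Mmp11, Mmp12, Mmp13, Mmp16, Mmp24 and Mmp25) had means of 0.0233 to 0.991 FPKM. All 16 were lower in mean with LIT927, by differences of -0.26 to -0.01, and none passed the test. Of all 41 members, 37 were above 0 in each library. The 4 with a 0 in at least 1 library were Adamts13, Adamts20, Adamtsl2 and Mmp13. Adamts8, Mmp28, Mmp12 and several other low members share exonic bases with a gene on the opposite strand, whose reads could not be told apart here.

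Proteins that work with these enzymes were taken as a second list of 48 genes, of which 41 were measured. Of these, 33 were lower in mean with LIT927, beside 44.5% of all genes, and 8 higher, with a median difference of -0.30, and 0 passed the test in limma (5 at an unadjusted p under 0.05, all lower, beside 2.96% of all genes). The groups did not overlap for 3, each lower with LIT927, where 2.12% of all genes were so. Vcan, the versican core protein that Adamts enzymes cut, was at 0.754, 0.871 and 0.5100 FPKM with vehicle and 0.247, 0.177, 0.311 and 0.409 FPKM with LIT927, a difference of -0.41 (SE 0.10). Adam19, a membrane sheddase, was at 1.93, 0.905 and 0.744 FPKM and 0.372, 0.207, 0.141 and 0.696 FPKM in the same order, a difference of -0.67 (SE 0.22). Adam8, a sheddase of leukocytes, was at 0.283, 0.183 and 0.264 FPKM and 0.0438, 0.168, 0.0372 and 0.151 FPKM, a difference of -0.18 (SE 0.064). Adam19 and Adam8 each share bases with an opposite-strand gene.

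The plasminogen activators and their inhibitors, which switch on several Mmp precursors or hold that back, went in both directions, with 3 of 6 lower. Plau, the urokinase activator, was at 204, 40.7 and 191 FPKM with vehicle and 669, 863, 24.7 and 414 FPKM with LIT927. LIT927 replicates 1, 2 and 4 were above every vehicle library and replicate 3 was below them, and the difference of 1.25 (SE 1.24) had an interval of -1.64 to 4.14. Serpine2, a protease inhibitor of seminal vesicle and other tissues, was at 186, 280.4 and 580.3 FPKM with vehicle and 643, 881, 195 and 466 FPKM with LIT927, with overlapping groups. Markers of vas deferens, which summed to 9416, 96.8 and 1886 FPKM with vehicle and 19608, 10089, 18.6 and 7032 FPKM with LIT927, were also lowest where Plau was lowest, and their part was not tested.

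Among the abundant partners, Bsg, the membrane glycoprotein known as an inducer of Mmp synthesis, was at 258, 233 and 127 FPKM with vehicle and 250.03, 231, 209 and 243 FPKM with LIT927, a difference of 0.24 (SE 0.30). Ctsb, the lysosomal protease cathepsin B, was at 214, 130.2 and 122 FPKM and 212, 218, 68.04 and 177 FPKM, a difference of 0.032 (SE 0.45). Neither separated the groups. The procollagen-processing list of Bmp1, Tll1, Tll2, Pcolce and Pcolce2 was lower in 5 of 5 genes, with a median difference of -0.37, beside the 3 lower genes of the Adamts N-proteinases, and 0 of the 5 passed the test.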

How the data were processed

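Prostate RNA of 7 libraries was extracted with TRIzol and prepared with a VAHTS kit, per the labels' protocols. Tools listed in the submitters' processing notes are fastp, HISAT2 and HTSeq, with build mm10. Not given in the sources used here: versions, annotation, strand setting and filters. The deposited tables hold FPKM by the authors, a unit inferred from the numbers because the headers give only the word expression. Within a gene the numbers step in equal units of 1 fragment, and whole fragments were recovered for 100% of 16019 genes within 0.01 fragments.

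Differences are LIT927 minus vehicle in limma 3.58.1 (R 4.3.3) fitted to log2(FPKM + 1) of the 7 libraries with the trend option, without covariates or a filter, and adjusted by Benjamini-Hochberg over all genes. The log2 scale understates changes of low genes. On data simulated for this comparison over 16019 genes, 0%, 64% and 87% of 200 genes changed by log2 1, 2 and 3 were recovered, with 0, 9 and 5 false calls. The changed genes were drawn from those with a mean log2(FPKM + 1) above 1, with normal noise independent between genes and libraries. For genes at such levels, a difference near 1 was therefore not called in this simulation. The 22 members with a mean under 1 FPKM lay outside it, and shifts shared by many genes of a library were not simulated.

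The members and gene lists were chosen with earlier results of these data known, and the ratios within libraries after values were seen. Values in each library are given for members with a mean of at least 1 FPKM, for those whose groups do not overlap and for the 10 with the smallest limma p, and for partners whose groups do not overlap or that are among the 4 highest. Other genes were chosen after their values were seen, and 1 further lumen marker was left out of the list and is not reported here. Alternatives were a pseudocount of 0.1, a low-value filter, 2 scalings, voom on recovered fragments, library weights, a replicate block and leaving out libraries. All 41 symbols matched GENCODE M21, the source of coordinates, and 12 share exonic bases with a gene on the opposite strand. Promoters are from RefSeq. Tables and figures used Python 3.11.15, pandas 2.3.3, NumPy 2.4.6 and matplotlib 3.10.9.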

Additional observations from a re-analysis of the deposited data

Results flagged for a closer look

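Among the 25 named members, 2 had a LIT927 library far from the other 3 by Dixon's criterion, which chance meets in about 1 of 20 groups of 4. The criterion was applied to the LIT927 groups of 4 only, not to the vehicle groups. Timp4 was at 69.3 FPKM in LIT927 replicate 3 and at 0.0416 to 2.34 FPKM in the other LIT927 libraries. It also had a far value with vehicle, at 39.1 FPKM in replicate 3 against 0.514 and 0.115 FPKM. Adamtsl1 was at 0.121 FPKM in LIT927 replicate 3 and at 2.02 to 2.37 FPKM in the other LIT927 libraries.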

How the results depend on the processing

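No member passed the threshold in any setting but 1. That setting estimated library quality weights by the default method of limma, which stopped before it converged and gave vehicle replicate 3 a weight of 31.5 against 0.122 to 2.26 for the others. With these weights 17 members and 6072 genes passed, 37.9% of all. Weights estimated gene by gene, added after seeing the data, passed 0 members and 466 genes, 2.91% of all. The median difference over the members was -0.51 with a pseudocount of 0.1, -0.52 over the 21 members kept by a minimum of 1 FPKM in 3 libraries and -0.80 with voom, against -0.17 in the reported fit. Without single libraries it ranged from -0.42 to -0.05, and from -0.33 to -0.11 with median-of-ratios scaling. Members and all genes past the threshold stayed at 0 to 0 in both sets of runs without single libraries.

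Of 394 values of the 25 named members under other settings, 27 changed sign. With the default weights these were Adamtsl1 (0.30), Mmp14 (0.14), Mmp28 (0.087) and Timp4 (-4.32), and with weights estimated gene by gene the same genes (0.23, 0.091, 0.13 and -3.77). Timp4 was at -0.53 with voom. Without both libraries with high uroplakin transcripts, Adamts15 (0.093), Adamtsl1 (0.020) and Mmp28 (0.27) changed sign. Over the runs without single libraries, the members that changed sign ranged over -0.55 to 0.034 (Adamts15), -0.53 to 0.16 (Adamtsl1), -0.82 to 0.012 (Mmp14), -0.87 to 0.45 (Mmp15), -0.21 to 0.22 (Mmp28), -0.0060 to 0.67 (Mmp9) and -1.21 to 1.77 (Timp4). The cause was not tested. In limma the adjusted p over the alternative fits to all genes was lowest under the default weights, at 0.00347 for Adamts2, 0.0121 for Adamts3, 0.00259 for Adamtsl5 and 0.00733 for Mmp23, and highest with the replicate block, at 0.999995 for each.

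Replicate numbers are those of the sample titles. The file headers number the same libraries 1, 4 and 5 with vehicle and 1, 3, 4 and 5 with LIT927, which puts the same libraries side by side. The labels do not say whether a shared number marks paired libraries. Deviations from the group means correlated at 0.565, 0.70 and -0.24 between same-numbered libraries for title numbers 1, 3 and 4. The LIT927 library most correlated with these vehicle libraries was replicate 4, 3 and 2, so only number 3 met its own number. With the replicate number as a block over those 6 libraries, 0 members and 0 genes passed, the median difference was -0.19, and Mmp15 changed sign to 0.20. With 3 vehicle libraries, 37 of 41 members' intervals span 0, and members under about 50 fragments are also limited by counting error.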
